A study of Mus musculus with 32 samples.

Results

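Toll-like receptor (Tlr) genes encode the receptors with which macrophages recognize microbial products. The set described here consists of 8 receptor genes, Tlr1, Tlr2, Tlr3, Tlr4, Tlr6, Tlr7, Tlr8 and Tlr9, and of Cd14 and Ly96, which encode the co-receptors of TLR4. They were found by the gene name that the array gives to each probe, which yielded 14 probes for the 10 genes, among 33140 probes with a gene symbol and 16037 genes tested. RNA came from bone marrow-derived macrophages (BMDMs), which are grown from mouse marrow in the growth factor M-CSF, of wild-type (WT) mice, C57BL/6 in the labels and C57BL6/J in the study's methods, and of Ifnar1-/- mice. The latter lack a chain of the receptor for type I interferon in every cell, controls included. Cells of both genotypes were left untreated, or received zVAD alone, LPS or IFNβ alone, or either of the latter with zVAD or with zVAD and Nec-1 (written LPS+zVAD+Nec-1). The resulting 16 groups have 2 arrays each, 32 in all. LPS is a bacterial ligand of TLR4, IFNβ is a type I interferon, zVAD blocks caspases and Nec-1 blocks RIPK1, a kinase of cell death pathways. The time of treatment was 6 h, and the labels give 100 ng/mL of LPS and 1000 U/mL of IFNβ. The study's text gives lower concentrations of LPS. For IFNβ it gives a lower one in U/mL in a figure legend and one in ng/mL in the methods. The age and number of the mice are not given in the sources used here, and nothing says that the 2 arrays of a group come from separate mice or cultures, so that the p-values measure the spread between arrays, which may be technical.

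TLR4 lies at the cell surface and binds LPS together with MD-2, the product of Ly96, after CD14 has handed LPS over. TLR2 pairs with TLR1 or TLR6 at the surface and recognizes bacterial lipopeptides. TLR3, TLR7, TLR8 and TLR9 lie in endosomes, where TLR3 recognizes double-stranded RNA, TLR7 and TLR8 recognize RNA and its breakdown products, and TLR9 recognizes unmethylated CpG DNA. All of them signal through the adaptor MyD88 except TLR3, which uses TRIF, and TLR4 uses both. TRIF leads to IFNβ, which acts back on the cell through IFNAR1 and the transcription factor complex ISGF3.

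Sequences before the gene start are shown for Tlr3, Tlr6 and Tlr2, which were picked with results of these data known. Of the 2 Tlr6 windows, only the one that holds ISRE letters is shown. They come from RefSeq on the GRCm38.p6 assembly, from 250 bases before to 50 bases after the start, on the strand of the gene and 5′ to 3′. Windows were matched for 6 of the 10 genes, and none was matched for Tlr4, Tlr7, Cd14 and Ly96. Capitals mark letters that fit a motif searched on both strands. The interferon-stimulated response element (ISRE), bound by ISGF3, was searched as GAAA, 2 free bases and GAAA, and the NF-κB motif as GGG, 5 free bases and CC.
Tlr6, first of 2 windows, chr5:64959117-64959416, minus strand, ISRE letters in capitals: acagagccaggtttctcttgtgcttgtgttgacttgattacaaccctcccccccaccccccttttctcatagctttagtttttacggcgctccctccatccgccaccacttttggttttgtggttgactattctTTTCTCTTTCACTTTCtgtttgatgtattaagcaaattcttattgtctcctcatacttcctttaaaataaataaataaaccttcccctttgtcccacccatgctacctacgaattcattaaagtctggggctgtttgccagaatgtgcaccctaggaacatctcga
Tlr3, chr8:45410331-45410630, minus strand, NF-κB letters in capitals: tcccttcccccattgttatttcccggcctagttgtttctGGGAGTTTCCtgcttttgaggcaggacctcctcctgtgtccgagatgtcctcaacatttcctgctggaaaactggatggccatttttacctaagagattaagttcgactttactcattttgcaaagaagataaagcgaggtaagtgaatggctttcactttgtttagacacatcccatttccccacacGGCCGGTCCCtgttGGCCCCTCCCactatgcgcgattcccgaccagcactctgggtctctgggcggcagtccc
Tlr2, chr3:83841559-83841858, minus strand, NF-κB letters in capitals: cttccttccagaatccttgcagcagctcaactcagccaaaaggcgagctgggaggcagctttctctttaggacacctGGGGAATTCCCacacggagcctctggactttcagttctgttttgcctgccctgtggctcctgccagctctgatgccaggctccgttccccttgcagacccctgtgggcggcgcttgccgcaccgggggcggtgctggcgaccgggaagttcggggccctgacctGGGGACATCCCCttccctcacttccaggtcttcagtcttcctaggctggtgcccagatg
The Tlr6 window holds 2 overlapping ISRE matches on the opposite strand, at positions -116 and -110 from the start. Such letters occur in 3.44% of all 32851 windows. Neither the Tlr3 nor the Tlr2 window holds letters that fit the ISRE motif in full, and inexact matches were not searched. Letters of the NF-κB motif are in 50.8% of all windows, and the Tlr3 and Tlr2 windows are among these. The interferon gamma-activated site (GAS; TTC, 3 free bases, GAA), in 8.3% of all windows, was found in the second Tlr6 window, the second Tlr1 window and the Tlr8 window. The AP-1 motif (TGA, 1 free base, TCA), in 7.81% of all windows, was found in the Tlr9 window. A match is a description of letters, and no binding was measured.

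Values are log2 intensities after quantile normalization, so that 1 unit is a doubling. Each gene was read with its brightest probe, which was well above background on 32 of 32 arrays for all 10 genes, and a level was compared between groups but not between genes. On the mm9 assembly, to which the array's coordinates refer, the Tlr3 probe lies at chr8:46481729-46481788, the Tlr6 probe at chr5:65344365-65344424, the Tlr1 probe at chr5:65316115-65316174, the Tlr2 probe at chr3:83640344-83640403 and the Tlr4 probe at chr4:66503470-66503529. A gene is called changed at an adjusted p under 0.05 from limma, adjusted over all genes tested. With 2 arrays a group, the number of arrays limits the precision, and the standard error (SE) of a difference between groups ran from 0.24 (Tlr7) to 0.75 log2 (Tlr2).

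Several checks touch the results. The array labelled Ifnar1-/- LPS+zVAD+Nec-1 replicate 2 stood apart. Its correlation with its own replicate was 0.947 over genes, where the replicates of the other 30 arrays correlated at 0.973 to 0.991, and it was closest to Ifnar1-/- IFNβ+zVAD+Nec-1 replicate 2 (0.993). LPS target genes were low on it, with Tnf at 9.99 against 15.92 on replicate 1 and 9.88 and 10.13 in untreated Ifnar1-/- cells. Results of its group are therefore given without it too, and the effect of its spread on the fit of all arrays is given with them. The Ifnar1 probe read 14.22 and 14.19 in untreated WT cells and 11.16 to 12.44 on the Ifnar1-/- arrays, on which it stayed above background; where the probe lies relative to the deletion is not given in the sources used here. Among WT arrays it was lower than untreated on LPS+zVAD (12.38, 11.18), LPS+zVAD+Nec-1 (13.50, 13.62), IFNβ (12.53, 12.92), IFNβ+zVAD (12.82, 12.87) and IFNβ+zVAD+Nec-1 (9.02, 12.73). Of these arrays, 3 lay within or below the range of the Ifnar1-/- arrays. Of 7 interferon target genes, IFNβ raised 7 in WT and 0 in Ifnar1-/- cells. Other treatments did raise some of the 7 in Ifnar1-/- cells. LPS raised 5 and lowered 1, LPS+zVAD raised 6, LPS+zVAD+Nec-1 raised 5 and IFNβ+zVAD+Nec-1 raised 4. With zVAD and with IFNβ+zVAD, 0 were called. Of all genes, 10.9% were called higher with LPS and 11% with LPS+zVAD. With Nec-1 added, 1.32% (LPS+zVAD) and 1.76% (IFNβ+zVAD) were called in either direction. Each genotype lies on 2 of the 4 slides, so that genotype and slide cannot be told apart where levels of untreated cells are compared. All 8 macrophage markers were well above background on all arrays. Markers of other cells were seen as well. On all arrays were Siglech, Tcf4, Cd79a, Cd79b, Cd3e, Elane, Mpo, Ngp, Col1a1, Col1a2 and Col3a1. The neutrophil marker Ly6g differed between the genotypes, being above background on 16 WT arrays and 1 Ifnar1-/- array. Of the rest, Cd3d, Cd3g, Ncr1, Xcr1 and Pdgfra were seen on 4, 3, 2, 2 and 0 arrays. Their part in the results was not tested, and in bulk RNA fewer cells of a type and less RNA per cell cannot be told apart.

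**Figure D1:**
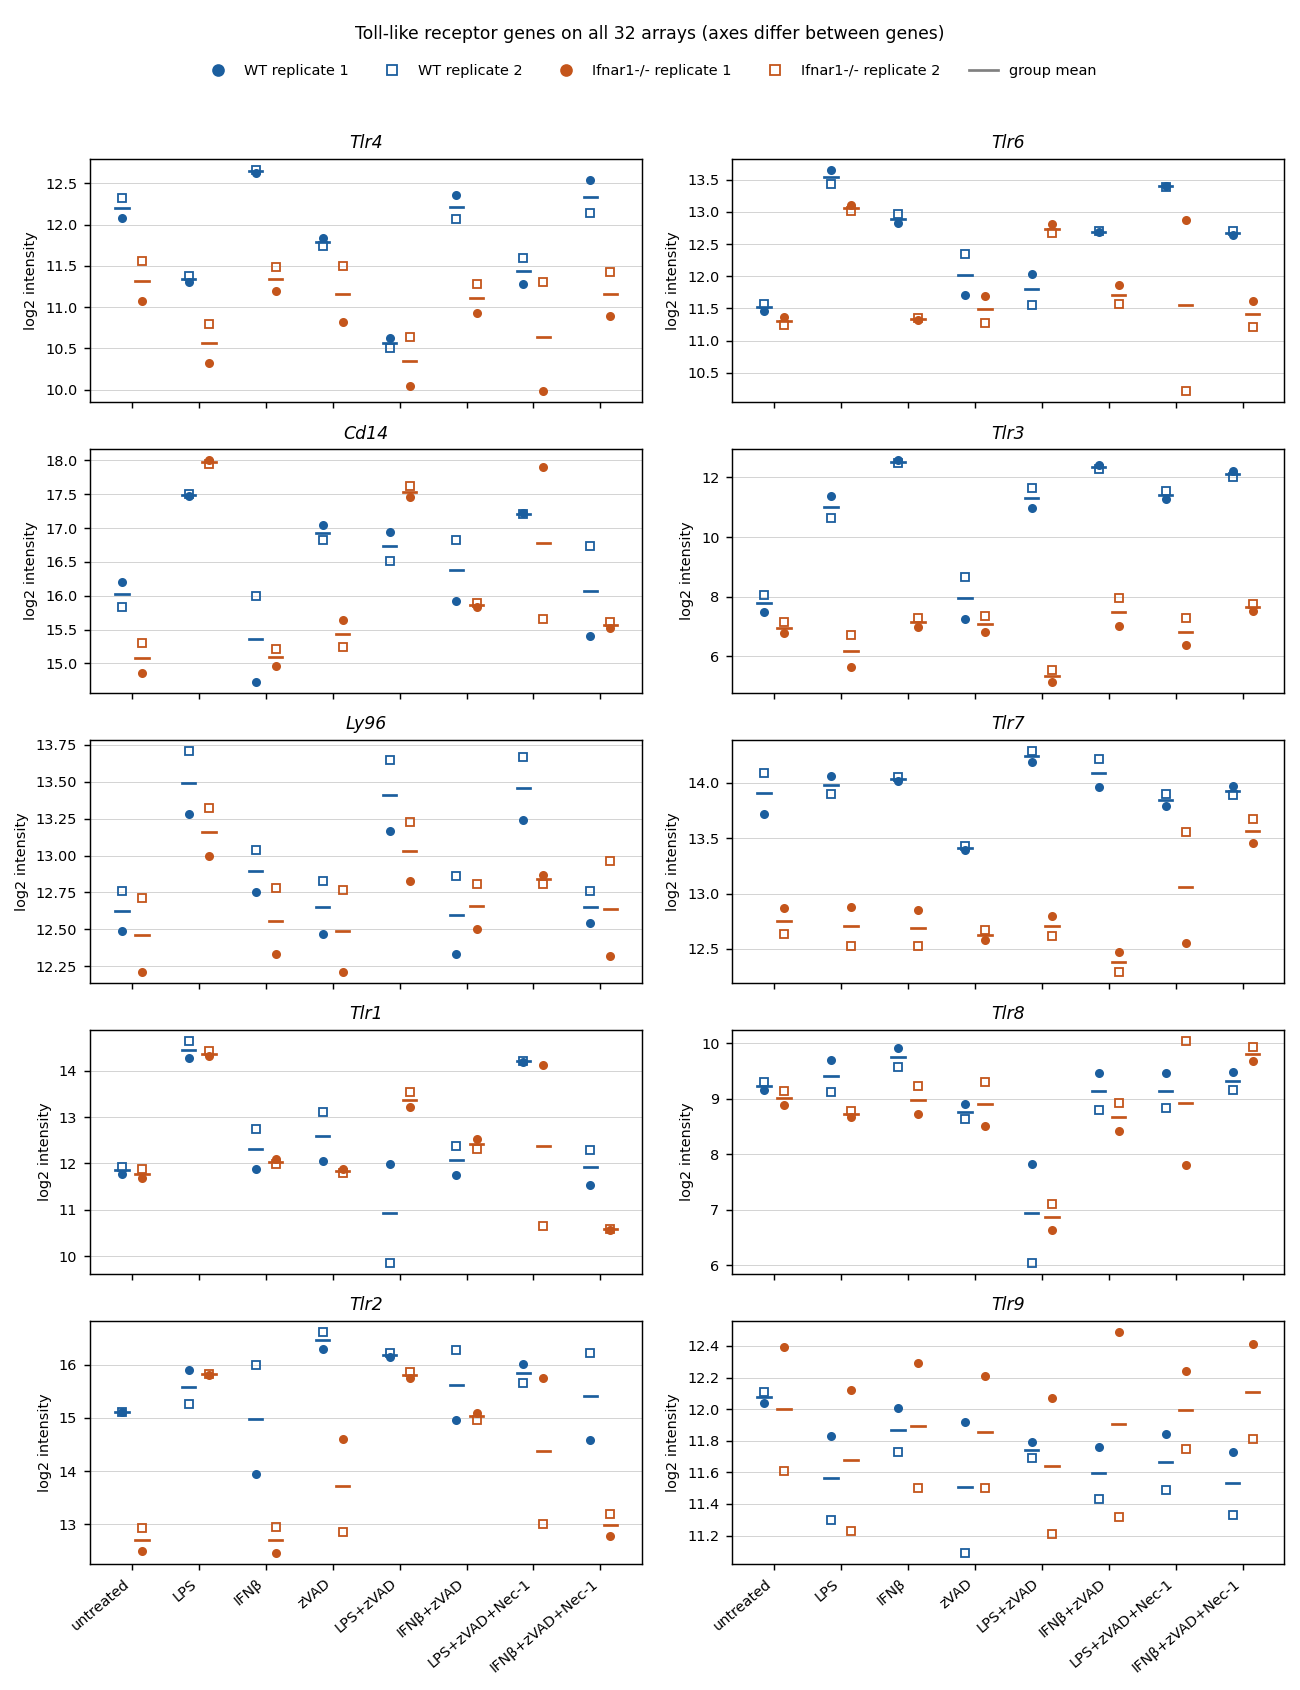
Log2 intensity of the 10 genes (one panel each, with axes that differ between genes) on the 32 arrays, by treatment (x axis), with WT and Ifnar1-/- in separate colours, a filled circle for replicate 1, an open square for replicate 2 and a bar for the group mean. Tlr3 lay between 10.64 and 12.57 on the 12 WT arrays with LPS or IFNβ, and between 5.14 and 8.65 on all other arrays.

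In the fit without a block for the replicate number, LPS raised 5 of the 10 genes in WT BMDMs and lowered 0. The genes were Tlr3, Tlr1, Tlr6, Cd14 and Ly96. Of all genes tested, 16.3% were called higher and 24.8% lower. With the replicate number as a block, Tlr4 and Tlr9 were called lower too. That fit called 8644 of all genes, 3534 of them higher. The median change of the 10 genes was 0.66 log2, beside -0.08 for all genes. In Ifnar1-/- BMDMs, LPS raised 4 of the 10 genes, Tlr2, Cd14, Tlr1 and Tlr6, where 10.9% of all genes were called higher, and the median of the 10 genes was 0.33 log2. With the block Ly96 was higher and Tlr4 lower too, where 6192 of all genes were called, 2704 of them higher.

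Among the components of the LPS receptor itself, Cd14 rose in both genotypes. Its log2 intensity was 16.21 and 15.83 on the untreated WT arrays and 17.47 and 17.51 with LPS, a change of 1.47 log2 (2.77-fold, SE 0.53, adjusted p = 0.032). Without Ifnar1 it went from 14.86 and 15.30 to 18 and 17.95, a change of 2.89 log2 (7.43-fold, adjusted p = 0.000658). In neither genotype did the arrays of treated and untreated cells overlap. The change was larger by 1.42 log2 in Ifnar1-/- cells (SE 0.75), which did not pass the test (adjusted p = 0.318). The call in WT is near the threshold, with an adjusted p of 0.0629 to 0.163 when 1 of the 4 arrays was left out.

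Ly96, which encodes MD-2, rose less. Its WT levels were 12.49 and 12.76 untreated and 13.28 and 13.71 with LPS, a change of 0.87 log2 (1.83-fold, SE 0.29, adjusted p = 0.0224). The Ifnar1-/- levels were 12.21 and 12.71 untreated and 13 and 13.32 with LPS, a difference of 0.70 log2 (1.63-fold, adjusted p = 0.0902). Replicate 2 was the higher array in each of these groups. With the replicate number as a block, the Ifnar1-/- difference passed as well (SE 0.14, adjusted p = 0.000692). Without WT LPS replicate 2 the WT call was lost (adjusted p = 0.168), and so it was without untreated WT replicate 1 (adjusted p = 0.135).

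Tlr4, the signalling receptor for LPS, lay lower with LPS in both genotypes. In WT cells it read 12.08 and 12.32 untreated and 11.31 and 11.38 with LPS, a difference of -0.85 log2 (95% confidence interval -1.57 to -0.14, adjusted p = 0.0531). Ifnar1-/- arrays read 11.07 and 11.56 untreated and 10.32 and 10.80 with LPS, a difference of -0.76 log2 (adjusted p = 0.122). Neither passed, and both did with the replicate number as a block (SE 0.20, adjusted p = 0.0019 in WT and 0.00719 in Ifnar1-/- cells). With IFNβ in WT cells, Tlr4 read 12.63 and 12.66, above both untreated arrays by 0.44 log2 on average, which did not pass (adjusted p = 0.351). Set directly against IFNβ, LPS gave a lower Tlr4 level by 1.30 log2 in WT cells (2.46-fold, adjusted p = 0.0106).

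Of the surface receptors for lipopeptides, Tlr1 and Tlr6 rose with LPS in both genotypes. Tlr1 read 11.78 and 11.93 on untreated WT arrays and 14.27 and 14.64 with LPS, a change of 2.60 log2 (6.06-fold, SE 0.74, adjusted p = 0.00814). In Ifnar1-/- cells it went from 11.69 and 11.87 to 14.32 and 14.43, a change of 2.59 log2 (6.03-fold, adjusted p = 0.0143). The 2 responses differed by -0.01 log2, with a 95% confidence interval from -2.20 to 2.18 log2, which is wide. Tlr6 went from 11.46 and 11.57 to 13.65 and 13.43 in WT cells, a change of 2.02 log2 (4.06-fold, SE 0.48, adjusted p = 0.00246). Tlr6 went from 11.37 and 11.24 to 13.11 and 13.02 in Ifnar1-/- cells, a change of 1.76 log2 (3.38-fold, adjusted p = 0.0117). Treated and untreated arrays lay apart for both genes in both genotypes. The WT calls of Tlr1 and Tlr6 held when any 1 array was left out, while the Ifnar1-/- calls then reached adjusted p values of 0.0595 to 0.0801 for Tlr1 and 0.0519 to 0.0706 for Tlr6.

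Tlr2, their shared partner, was called changed by LPS in Ifnar1-/- cells and not in WT cells. It read 12.50 and 12.92 on the untreated Ifnar1-/- arrays and 15.81 and 15.82 with LPS, a change of 3.10 log2 (8.59-fold, SE 0.75, adjusted p = 0.0051). On the WT arrays it read 15.11 and 15.11 untreated and 15.89 and 15.26 with LPS, a difference of 0.46 log2 (95% confidence interval -1.11 to 2.03, adjusted p = 0.679). The level with LPS was thus similar in the genotypes, while the untreated level lay 2.40 log2 lower in Ifnar1-/- cells (5.29-fold, adjusted p = 0.053). That untreated difference passed under 5 of 15 alternatives. These were normexp background correction, a fit of only these arrays, leaving out both Ifnar1-/- LPS+zVAD+Nec-1 arrays, the authors' values and another variance prior. The difference between the genotypes in the LPS response was 2.64 log2 (SE 1.06, 95% confidence interval 0.42 to 4.86) and did not pass (adjusted p = 0.161). It passed in a limma fit of only the arrays compared (adjusted p = 0.0138), as did that for LPS+zVAD (2.04 log2, adjusted p = 0.00801). WT arrays varied widely in Tlr2, with 13.95 and 16 in the IFNβ group.

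Tlr3, the receptor for double-stranded RNA, was the gene of the set that IFNβ and LPS moved most in WT cells. It read 7.49 and 8.06 on the untreated WT arrays, 11.39 and 10.64 with LPS and 12.57 and 12.48 with IFNβ. The change was 3.24 log2 with LPS (9.47-fold, SE 0.45, adjusted p = 1.56e-05) and 4.75 log2 with IFNβ (27-fold, adjusted p = 1.87e-07). The level with LPS was 1.51 log2 below that with IFNβ (adjusted p = 0.0209), a call that was lost without WT LPS replicate 2 and without either IFNβ array (adjusted p up to 0.194 over the alternatives).

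Tlr3 was not called with LPS or IFNβ in Ifnar1-/- cells. It read 6.77 and 7.15 untreated, 5.64 and 6.72 with LPS and 6.99 and 7.29 with IFNβ. The differences from untreated were -0.78 log2 with LPS (95% confidence interval -1.71 to 0.16, adjusted p = 0.24) and 0.18 log2 with IFNβ (95% confidence interval -0.76 to 1.12, adjusted p = 1). With LPS+zVAD, at 5.14 and 5.52, it fell by 1.64 log2 (3.11-fold, adjusted p = 0.0101), a call lost without untreated replicate 2 or LPS+zVAD replicate 1 (adjusted p up to 0.0908).

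The difference between the genotypes was tested for each of the 7 treatments, and Tlr3 was called in 6. The response was smaller in Ifnar1-/- cells by 4.02 log2 for LPS (adjusted p = 0.000644) and by 4.57 log2 for IFNβ (adjusted p = 5.18e-05). For the combinations the differences were -4.05 log2 with IFNβ+zVAD (adjusted p = 0.000203), -5.19 log2 with LPS+zVAD (adjusted p = 3.75e-05), -3.77 log2 with LPS+zVAD+Nec-1 (adjusted p = 0.000443) and -3.67 log2 with IFNβ+zVAD+Nec-1 (adjusted p = 0.000503). Without the Ifnar1-/- array that stood apart, the LPS+zVAD+Nec-1 value was -4.22 log2 (adjusted p = 0.00046). The share of all genes called lower in the same tests was 3.6% for LPS, 4.78% with zVAD and 7.12% with zVAD and Nec-1, and 8.54% for IFNβ, 8.39% with zVAD and 8.16% with zVAD and Nec-1. For zVAD alone the Tlr3 difference was -0.06 log2, and limma called 0 genes (0% of all), with 163 genes at an unadjusted p under 0.05. None of the other 9 genes passed in any of these tests with all arrays in the fit and no alternative applied. All 7 tests within a genotype use the same untreated arrays.

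**Figure D2:**
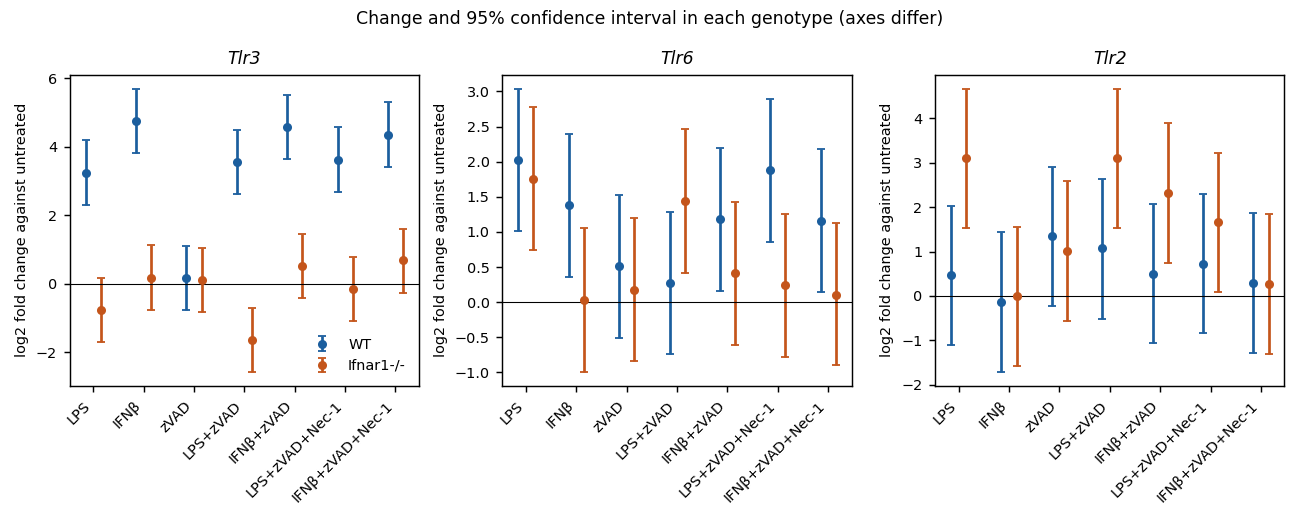
Log2 fold change against untreated cells of the same genotype (y axis, points with 95% confidence intervals, axes that differ between panels) for the 7 treatments (x axis) in WT and Ifnar1-/- BMDMs. Tlr3 changed by 3.24 to 4.75 log2 in WT cells with LPS or IFNβ, alone or combined, and lay between -1.64 and 0.68 log2 in Ifnar1-/- cells under these treatments.

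IFNβ raised 2 of the 10 genes in WT cells, Tlr3 and Tlr6, where 13.7% of all genes were called higher, and the median of the 10 genes was 0.36 log2, beside -0.17 for all genes. Tlr6 went from 11.46 and 11.57 to 12.82 and 12.96, a change of 1.38 log2 (2.6-fold, SE 0.48, adjusted p = 0.0333). The IFNβ arrays lay above all untreated and below all LPS arrays in Tlr6. The call was lost when any 1 of the 4 arrays was left out (adjusted p 0.0929 to 0.123), and also with normexp background correction or no filter on dim probes (adjusted p = 0.0578 and 0.0523). Tlr6 read 11.32 and 11.35 with IFNβ in Ifnar1-/- cells, 0.03 log2 from untreated (95% confidence interval -0.99 to 1.05). The difference between genotypes of -1.35 log2 did not pass (adjusted p = 0.191), and it passed when the 2 Ifnar1-/- LPS+zVAD+Nec-1 arrays were left out of the fit (adjusted p = 0.00291). With IFNβ in Ifnar1-/- cells limma called 0 of the 10 genes and 0 genes in all (0%), 253 of all genes and 0 of the 10 had an unadjusted p under 0.05, and the count over all genes was 0 to 13 under the alternatives.

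Direct comparison of LPS with IFNβ in WT cells called 4 of the 10 genes, and 5 with the replicate number as a block, which added Ly96 (0.60 log2, adjusted p = 0.00262). Over all genes, 3251 were called without the block and 5426 with it. Cd14 was higher with LPS by 2.13 log2 (4.37-fold, adjusted p = 0.00718) and Tlr1 by 2.13 log2 (adjusted p = 0.0477), where 9.14% of all genes were called higher. The Cd14 call was lost without IFNβ replicate 1 (adjusted p = 0.126), and the Tlr1 call without any 1 of the 4 arrays (adjusted p up to 0.263). Tlr3 and Tlr4 were lower with LPS, where 11.1% of all genes were called lower, and the Tlr4 call was lost without LPS replicate 1 or either IFNβ array (adjusted p up to 0.0583). In Ifnar1-/- cells LPS gave higher levels than IFNβ of Tlr2 (3.11 log2), Cd14 (2.89), Tlr1 (2.33) and Tlr6 (1.73), with 10.9% of all genes called higher. Leaving out any 1 of these 4 arrays ended the calls of Tlr1 (adjusted p up to 0.108) and Tlr6 (up to 0.0762). With the block, Ly96 (0.61 log2, adjusted p = 0.00194) was also higher there and Tlr4 (-0.78 log2, 0.00565) and Tlr3 (-0.96 log2, 0.0395) lower with LPS. LPS target genes were not level on the WT IFNβ arrays, where Tnf read 13.88 and 14.48 against 10.47 and 10.22 untreated; its part in these values was not tested.

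**Figure D3:**
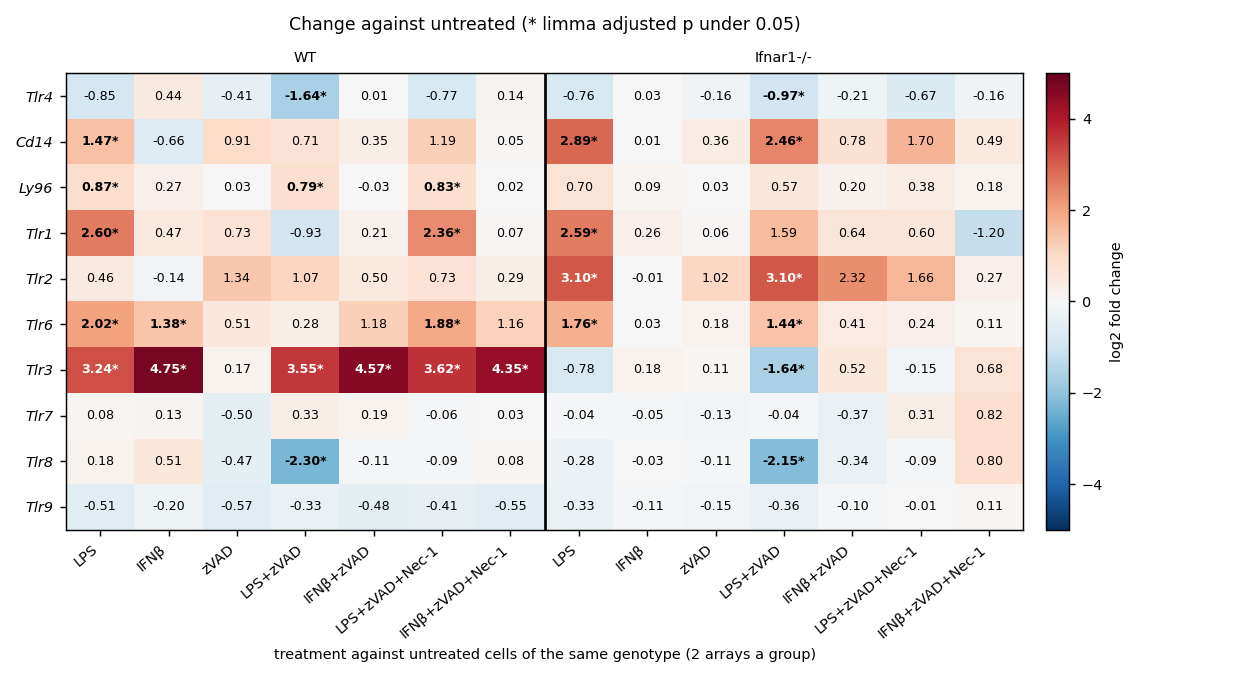
Log2 fold change of the 10 genes (rows) against untreated cells of the same genotype for each treatment (columns), as colour and number, with an asterisk at an adjusted p under 0.05. In WT cells Tlr3 carries an asterisk in all 6 treatments with LPS or IFNβ, and in Ifnar1-/- cells it carries one only with LPS+zVAD, where it is lower.

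Receptors for nucleic acids other than Tlr3 moved little with LPS or IFNβ alone. Tlr7 read 13.72 and 14.09 on untreated WT arrays, 14.06 and 13.90 with LPS and 14.02 and 14.05 with IFNβ, so that both treated groups lay within the range of the untreated arrays. Its differences from untreated were 0.08 log2 with LPS (adjusted p = 0.84) and 0.13 log2 with IFNβ (adjusted p = 0.734). Tlr9 read 12.04 and 12.11 on untreated WT arrays and 11.83 and 11.30 with LPS, a difference of -0.51 log2 (adjusted p = 0.394), which passed with the replicate number as a block (SE 0.17, adjusted p = 0.0209). In the fit without the block Tlr9 was called in none of the comparisons. Tlr8 read 9.17 and 9.31 on untreated WT arrays, 9.71 and 9.12 with LPS and 9.92 and 9.58 with IFNβ, and none of these differences passed.

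Between the untreated genotypes, Tlr7 was called. It read 12.87 and 12.63 in Ifnar1-/- cells, lower than WT by 1.16 log2 (2.23-fold, SE 0.24, adjusted p = 0.00392), where 3.35% of all genes were called lower, and it was called with the slide as a random block as well (SE 0.29, adjusted p = 0.0149). All Ifnar1-/- arrays without Nec-1 lay between 12.29 and 12.88, below all WT arrays, the lowest of which read 13.39. With Nec-1, the Ifnar1-/- arrays read 12.55 and 13.56 for LPS+zVAD+Nec-1, the second of which is the array that stood apart, and 13.46 and 13.67 for IFNβ+zVAD+Nec-1. The increase from IFNβ+zVAD to IFNβ+zVAD+Nec-1 in Ifnar1-/- cells was 1.19 log2 (2.28-fold, adjusted p = 0.0115), where 1.05% of all genes were called higher, and it was lost with the mean of the Tlr7 probes, with a shift to a common 75th percentile, in a fit of only these arrays, and without IFNβ+zVAD replicate 2 or either Nec-1 array (adjusted p up to 0.242). The genotype call was lost with the mean of the probes (-0.96 log2, adjusted p = 0.222), in a fit of only these arrays and without replicate 2 of either genotype. The Tlr7 probes averaged 13.37, 13.18 and 4.66 log2 over all arrays. The dimmest, also retained, was well above background on 16 of 32 arrays. It gave 2.37 log2 for IFNβ in WT cells (SE 0.99, adjusted p = 0.0706), where the brightest gave 0.13. The summed level of the plasmacytoid dendritic cell markers, cells rich in TLR7, was 15.9 to 16.49 log2 on WT arrays and 15.25 to 16.08 on Ifnar1-/- arrays, and 3 of 4 markers were above background on most arrays in either genotype. That of the stromal markers was 8.58 to 10.14 and 10.81 to 12.59, with Pdgfra on 0 arrays. Their part in the Tlr7 difference was not tested.

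zVAD combined with LPS gives a stimulus of necroptosis, a form of cell death that depends on RIPK1, which Nec-1 inhibits. None of the 10 genes was called with zVAD alone. In WT cells limma called 1 gene in all (0.00624% of all genes), 901 genes had an unadjusted p under 0.05, and of the 10 genes only Tlr7 did (-0.50 log2, adjusted p = 0.885). The alternatives called 0 to 35 genes there, 35 with the replicate number as a block and 31 with both arrays of Ifnar1-/- LPS+zVAD+Nec-1 left out of the fit, with 0 of the 10 genes among them. Tlr2 read 16.29 and 16.62 with zVAD against 15.11 and 15.11 untreated, 1.34 log2 higher (adjusted p = 0.965). Of the Ifnar1-/- cells limma called 0 genes (0%), 61 genes in all and 0 of the 10 had an unadjusted p under 0.05, and the alternatives called 0 to 2 genes. Replicate 1 of that zVAD group had Tlr2 at 14.60 and Tnf at 12.84, against 12.85 and 10.13 on replicate 2, and how the raised LPS targets bear on Tlr2 was not tested.

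Adding zVAD to LPS lowered 3 of the 10 genes in WT cells relative to LPS, Tlr1, Tlr8 and Tlr6, where 21.7% of all genes were called lower. Tlr1 read 11.99 and 9.86 with LPS+zVAD, against 14.27 and 14.64 with LPS, and so fell by 3.53 log2 (SE 0.74, adjusted p = 0.001). Tlr8 read 7.83 and 6.05 against 9.71 and 9.12 with LPS and fell by 2.47 log2 (5.56-fold, SE 0.56, adjusted p = 0.00182), and its second probe fell by 2.56 log2 (adjusted p = 0.000123). Tlr6 read 12.04 and 11.55 against 13.65 and 13.43 and fell by 1.74 log2 (3.35-fold, adjusted p = 0.00849). On all of these, LPS+zVAD replicate 2 was the lower array, and without it the calls of Tlr6 (-1.50 log2, adjusted p = 0.0866) and Tlr8 (-1.58 log2, adjusted p = 0.0673) were lost, which left Tlr1.

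With Nec-1 added, the same 3 genes were higher than with LPS+zVAD, where 18.7% of all genes were called higher. Tlr1 read 14.20 and 14.22, an increase of 3.29 log2 (9.75-fold, adjusted p = 0.00232). Tlr8 read 9.46 and 8.84, an increase of 2.21 log2 (4.62-fold, adjusted p = 0.00545), and Tlr6 read 13.40 and 13.39, an increase of 1.60 log2 (3.03-fold, adjusted p = 0.0178). All 3 calls were lost without LPS+zVAD replicate 2 (Tlr1 then 2.22 log2, adjusted p = 0.0762), that of Tlr6 also without either Nec-1 array and that of Tlr8 without Nec-1 replicate 1. Both steps share the LPS+zVAD arrays. Tlr3 differed from this, with 10.99 and 11.66 with LPS+zVAD and 11.26 and 11.53 with Nec-1, beside 11.39 and 10.64 with LPS. Tlr4 was lower with LPS+zVAD, at 10.62 and 10.51, by 0.78 log2 relative to LPS (adjusted p = 0.0874, and 0.00431 with the replicate number as a block), and higher by 0.87 log2 with Nec-1 (adjusted p = 0.0666, and 0.00242 with the block).

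**Figure D4:**
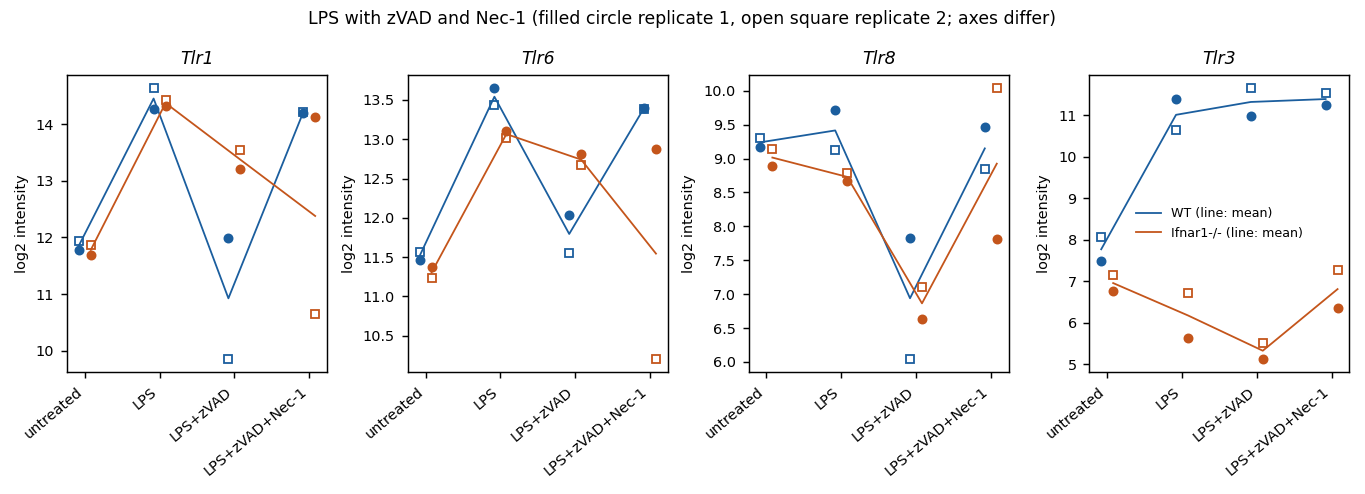
Log2 intensity (y axis, axes that differ between panels) of genes of the set in untreated cells and with LPS, LPS+zVAD and LPS+zVAD+Nec-1 (x axis), with a filled circle for replicate 1, an open square for replicate 2 and lines through the means of WT and Ifnar1-/- cells. Tlr1 and Tlr8 were lowest with LPS+zVAD in WT cells, at 10.93 and 6.94 on average, and Tlr8 was also lowest there in Ifnar1-/- cells, at 6.87.

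Relative to untreated WT cells, LPS+zVAD raised Tlr3 by 3.55 log2 (11.7-fold, adjusted p = 2.4e-06) and Ly96 by 0.79 log2 (adjusted p = 0.0306), where 18.3% of all genes were called higher. It lowered Tlr8 by 2.30 log2 (4.92-fold, adjusted p = 0.00189) and Tlr4 by 1.64 log2 (3.11-fold, adjusted p = 0.000533), where 32.7% of all genes were called lower. The Tlr8 call was lost without LPS+zVAD replicate 2 (-1.41 log2, adjusted p = 0.0675), and that of Ly96 without untreated replicate 1 or LPS+zVAD replicate 2 (adjusted p up to 0.232). Scaling mattered here, since a shift of the arrays to a common 75th percentile also called Tlr2 (2.03 log2), Cd14 (1.65) and Tlr7 (0.92) higher. LPS+zVAD+Nec-1 raised Tlr3 (3.62 log2), Tlr1 (2.36), Tlr6 (1.88) and Ly96 (0.83), where 16% of all genes were called higher. With the block Tlr4 passed too (-0.77 log2, adjusted p = 0.00422). Leaving out any 1 of these 4 arrays ended the call of Tlr1 (adjusted p up to 0.0685), and all but Nec-1 replicate 1 that of Ly96 (up to 0.205). IFNβ+zVAD and IFNβ+zVAD+Nec-1 raised Tlr3 alone among the 10 genes, by 4.57 log2 (23.7-fold, adjusted p = 3.17e-07) and 4.35 log2 (20.4-fold, adjusted p = 6.93e-07), where 14.4% and 13.3% of all genes were called higher. With the replicate number as a block, Tlr6 (1.18 and 1.16 log2) and Tlr9 (-0.48 and -0.55 log2) passed in both as well. In WT cells, none of the 10 genes was called when zVAD was added to IFNβ or Nec-1 to IFNβ+zVAD. For these steps limma called 0 genes (0% of all), with 637 and 613 genes at an unadjusted p under 0.05, 0 of the 10 genes among them, and 0 to 21 and 0 to 23 genes called under the alternatives.

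In Ifnar1-/- cells, LPS+zVAD raised Tlr2 (3.10 log2, adjusted p = 0.00455), Cd14 (2.46 log2, adjusted p = 0.00195) and Tlr6 (1.44 log2, adjusted p = 0.0325) relative to untreated cells, where 11% of all genes were called higher. It lowered Tlr8 by 2.15 log2 (4.43-fold, adjusted p = 0.00727), Tlr3 by 1.64 log2 and Tlr4 by 0.97 log2 (1.96-fold, adjusted p = 0.0409), where 17.2% of all genes were called lower. With the block Ly96 was higher as well (0.57 log2, adjusted p = 0.00283). Tlr8 read 6.63 and 7.10, below all other Ifnar1-/- arrays. With 1 array left out, the calls of Tlr2 and Cd14 held, that of Tlr6 was lost for each array, that of Tlr8 without untreated replicate 2 or LPS+zVAD replicate 1 (adjusted p up to 0.0711), and that of Tlr4 without either untreated array or LPS+zVAD replicate 1 (up to 0.314). Relative to LPS, only Tlr8 was called, lower by 1.87 log2 (3.65-fold, adjusted p = 0.0449), where 3.67% of all genes were called lower, and leaving out any 1 of the 4 arrays ended the call. Tlr1, at 13.21 and 13.54, lay below its LPS arrays by 1 log2 (adjusted p = 0.503). The zVAD step itself was not compared between the genotypes. In the response to LPS+zVAD from untreated, Tlr1 was higher by 2.52 log2 in Ifnar1-/- than in WT cells (SE 1.04, adjusted p = 0.113). That difference passed when the 2 Ifnar1-/- LPS+zVAD+Nec-1 arrays were left out of the fit (adjusted p = 0.0136), as did those of Tlr6 (0.00996) and Cd14 (0.0318).

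The group Ifnar1-/- LPS+zVAD+Nec-1 contains the array that stood apart, and its 2 arrays gave different answers. None of the 10 genes was called against untreated cells by limma, where 1.32% of all genes were called, and Tlr2 and Cd14 had an unadjusted p under 0.05. On replicate 1, Tlr1 read 14.12, Tlr2 15.74, Tlr6 12.88 and Cd14 17.90, close to the LPS arrays. On replicate 2 Tlr1 read 10.64, Tlr2 13 and Cd14 15.66, close to the IFNβ+zVAD+Nec-1 arrays. Tlr6 read 10.21 on it, below the 11.62 and 11.21 of those arrays and lowest of all 32 arrays. Without replicate 2, Tlr2 (3.03 log2, adjusted p = 0.0102), Cd14 (2.81 log2, 0.000518), Tlr1 (2.34 log2, 0.0106) and Tlr6 (1.58 log2, 0.000346) were called higher and Tlr4 (-1.34 log2, 0.00943) lower. Without replicate 1, Tlr6 alone was called, lower by 1.09 log2 (adjusted p = 0.0498). Relative to LPS+zVAD, Tlr8 (2.06 log2) and Tlr3 (1.49 log2) were called higher, where 11.1% of all genes were called higher. Without replicate 2 neither call held, at 0.95 log2 for Tlr8 and 1.03 log2 for Tlr3. With the block Tlr6 was lower (-1.20 log2, adjusted p = 0.0441), a value that includes replicate 2.

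Both arrays of this group also enter the spread estimated for each gene. Leaving them out of the fit turned 21 of 290 differences between other groups from not called to called and ended 0 calls. Of these, 6 were differences between the genotypes, those of Tlr6, Tlr1 and Cd14 given above for LPS+zVAD, that of Tlr6 for IFNβ, and those of Tlr6 (-1.05 log2, adjusted p = 0.0159) and Tlr7 (0.79 log2, 0.023) for IFNβ+zVAD+Nec-1. Tlr4 passed in 7 comparisons, among them LPS in WT (adjusted p = 0.0151) and in Ifnar1-/- cells (0.0429). Tlr6 passed in WT cells with IFNβ+zVAD (adjusted p = 0.000202), with IFNβ+zVAD+Nec-1 (0.000291) and for LPS against IFNβ (0.64 log2, 0.0309), and Cd14 with LPS+zVAD+Nec-1 (0.019). In Ifnar1-/- cells Tlr1 passed with LPS+zVAD (adjusted p = 0.0162) and for the step from IFNβ+zVAD to IFNβ+zVAD+Nec-1 (-1.84 log2, 0.0434), and Tlr7 passed with IFNβ+zVAD+Nec-1 (0.0102). The untreated level of Tlr2 then differed between the genotypes (adjusted p = 0.0154).

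**Figure D5:**
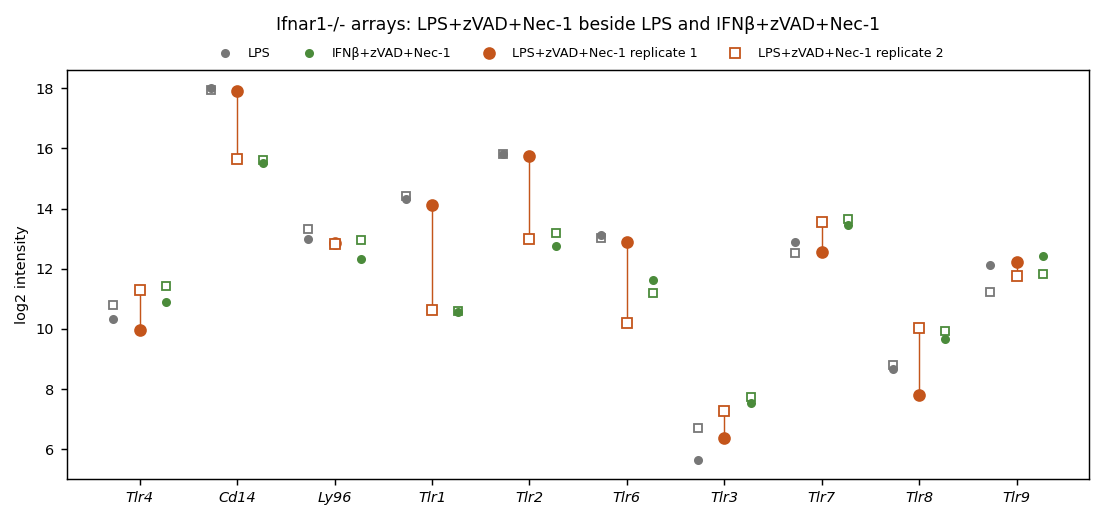
Log2 intensity (y axis) of the 10 genes (x axis) on the Ifnar1-/- arrays with LPS+zVAD+Nec-1 (replicate 1 a filled circle, replicate 2 an open square), beside those with LPS and with IFNβ+zVAD+Nec-1. Replicate 1 lies near the LPS arrays for Tlr1, Tlr2, Tlr6 and Cd14, and replicate 2 near the IFNβ+zVAD+Nec-1 arrays for Tlr1, Tlr2 and Cd14 and below them for Tlr6.

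For the other treatments of Ifnar1-/- cells, none of the 10 genes was called against untreated cells. With IFNβ+zVAD, limma called 1 gene in all (0.00624%) and 585 had an unadjusted p under 0.05, of the 10 genes Tlr2 alone. Tlr2 read 15.10 and 14.96 there, against 12.50 and 12.92 untreated, 2.32 log2 higher (adjusted p = 0.822). Tnf was at 13.30 and 13.38 on these arrays, against 9.88 and 10.13 untreated, and its part in the Tlr2 value was not tested. Relative to IFNβ alone, limma again called 1 gene in all (0.00624%), with 370 genes at an unadjusted p under 0.05 and Tlr2 the only one of the 10 (2.34 log2, adjusted p = 1). With IFNβ+zVAD+Nec-1, 1.76% of all genes were called, and Tlr7 was the only one of the 10 with an unadjusted p under 0.05 (0.82 log2, adjusted p = 0.105). Tlr1 read 10.57 and 10.59 there, below both untreated arrays by 1.20 log2 (adjusted p = 0.694).

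Other genes of the pathway were taken from 2 lists. The first holds 21 other receptors, chaperones and proteins that carry or process the receptors, of which 18 were tested, not Tlr11, Tlr12 and Tril. In WT cells LPS raised 2 and lowered 6 of these (11.1% and 33.3%), with a median of -0.39 log2, beside the 16.3% and 24.8% of all genes. Cnpy4 (-2.12 log2, SE 0.30, adjusted p = 2.23e-05) and Cnpy3 (-1.80 log2, SE 0.26, adjusted p = 2.96e-05), of the family of chaperones that help receptors reach their place, and Tlr13 (-1.40 log2, SE 0.30, adjusted p = 0.00103), a receptor for bacterial ribosomal RNA, moved most. IFNβ raised 3 and lowered 2 in WT cells (16.7% and 11.1%), beside 13.7% and 21.6% of all genes. Cd180, a relative of TLR4, rose by 3.38 log2 (adjusted p = 7.98e-08), and Ly86, whose product binds CD180 as MD-2 binds TLR4, rose by 1.06 log2 (adjusted p = 0.00169). Cd36, a scavenger receptor that works with TLR2 and TLR6, fell by 0.91 log2 (adjusted p = 0.00599). In Ifnar1-/- cells LPS raised 0 and lowered 7 (38.9%), beside 10.9% and 13.9% of all genes, led by Ly86 (-1.62 log2), Tlr13 (-1.41 log2) and the endosomal protease gene Lgmn (-1.32 log2). With IFNβ, 0 of the 18 were called there. The LPS response of Cd180 and Ly86 was lower in Ifnar1-/- than in WT cells, by 1.96 log2 (adjusted p = 0.00726) and 1.47 log2 (adjusted p = 0.0109). The balance in this list depended on the scaling. With a shift to a common 75th percentile, LPS raised 2 and lowered 2 in WT cells (median 0.06 log2), IFNβ raised 4 and lowered 0, and LPS lowered 4 in Ifnar1-/- cells.

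The second list holds 26 adaptors, kinases, transcription factors and inhibitors of signalling, of which 25 were tested, not Sarm1. LPS raised 12 and lowered 3 in WT cells (48% and 12%), with a median of 0.69 log2, and raised 10 (40%) and lowered 0 in Ifnar1-/- cells, with the same shares of all genes beside them as above. Genes of inhibitors led in both, with Tnfaip3, which encodes A20, at 4.61 log2 (SE 0.76) in WT cells and at 3.91 log2 without Ifnar1. Irak3 rose by 3.11 log2 (SE 0.68) and by 3.87 log2. Irf7, a transcription factor of interferon genes, rose by 3.04 log2 with LPS and 4.26 log2 with IFNβ in WT cells. Its response was lower in Ifnar1-/- cells by 3.87 log2 for LPS (adjusted p = 0.000594) and by 4.36 log2 for IFNβ (adjusted p = 4.84e-05), and it was the only gene of the list called in the genotype difference for LPS. IFNβ raised 8 and lowered 6 in WT cells (32% and 24%, beside 13.7% and 21.6% of all genes), Myd88 among the former (1.92 log2, adjusted p = 2.68e-06). In Ifnar1-/- cells 0 of the 25 were called with IFNβ. With zVAD added to LPS in WT cells, 3 rose and 10 fell relative to LPS (12% and 40%, beside 12.9% and 21.7% of all genes), led by Irak3 (-2.74 log2), Ikbke (-2.72 log2), a kinase of interferon regulatory factors, and Ticam2 (-2.68 log2), which encodes the bridge from TLR4 to TRIF. With Nec-1 added to that, 11 rose and 2 fell (44% and 8%, beside 18.7% and 9.78% of all genes), Ikbke (2.39 log2), Ticam2 (2.29 log2) and Irak3 (1.98 log2) among the former. For this list the shift gave 14 higher and 2 lower with LPS, and 9 higher and 3 lower with IFNβ, in WT cells.

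Over the 16 group means, which share slides and include the array that stood apart, some genes of the set followed each other. Pearson's r was 0.84 for Tlr3 and Tlr7, 0.77 for Tlr1 and Tlr6, 0.77 for Tlr2 and Cd14, 0.74 for Cd14 and Ly96, and -0.73 for Tlr2 and Tlr9. Among all 16026 genes with a value in every group, those most like Tlr3 were Aftph, Cenpj and Parp11 (r = 0.99 each), and those close to Tlr6 included Ass1 and Adora2b (0.96 each). Tlr4 was most like Inpp5k (0.97), Tlr1 most like Pira6 (0.96), Cd14 most like Agrn and Ctu2 (0.96 each), Ly96 most like Kremen1 (0.96), Tlr7 most like Taar7f (0.98) and Tlr2 most like Icosl and Bcl10 (0.93 each). The closest genes were less alike for Tlr8 (Bclaf1, Zfp217 and Wdr44, 0.91 each) and Tlr9 (Apoc4, 0.86), whose group means spanned 0.57 log2 (WT) and 0.47 log2 (Ifnar1-/-). With that group read from replicate 1 alone, r was 0.85, 0.80, 0.78, 0.69 and -0.53 for the 5 pairs. The closest gene then stayed the same for Tlr1, Tlr2, Tlr3, Tlr4, Cd14 and Ly96, and became Tssk5 for Tlr7 (0.97), Cog4 for Tlr8 (0.92) and Slco1a1 for Tlr9 (0.84). These values are descriptions over 16 points.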

How the data were processed

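RNA of 32 one-colour Agilent arrays (55681 probes), 2 for each of 16 groups, was analysed. The authors deposited scanner intensities from Feature Extraction 11.5.1.1, already background-subtracted and detrended by that software, and a table of their normalized log2 values (59305 rows, 35.4% listed as null), which was used as an alternative. Per the study's methods, the authors kept probes brighter than background on at least 50% of arrays, applied quantile normalization to background-subtracted values, left out genes of low expression, modelled genotype and treatment and adjusted p-values by Benjamini-Hochberg; the labels name limma. The array's annotation is on mm9.

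Here intensities were taken to log2, outlier-flagged spots (130 to 499 per array) were left out, spots of a probe were averaged and arrays were quantile-normalized. Probes with a symbol and well above background on at least 50% of arrays were retained (21465 of 33140), and the brightest per symbol was used, which gave 16037 genes. Well above background were 54.9% to 78.1% of the probes on WT arrays and 44.5% to 61.6% on Ifnar1-/- arrays, and no spot was saturated. limma 3.58.1 in R 4.3.3 fitted 16 group means to all arrays (16 residual degrees of freedom), with Benjamini-Hochberg adjustment and a threshold of 0.05. The script was tested on simulated data.

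A slide carries all 8 treatments of a genotype under a single replicate number, and there are 4 slides. Same-numbered arrays deviated together from their group means, with r above 0.1 in 28 of 28 pairs of treatments in WT (median 0.49) and in 28 of 28 in Ifnar1-/- cells (median 0.44), so that the numbers pair the arrays. Within a genotype each number is also a slide, so that a shared slide and paired samples cannot be told apart. The replicate block was an alternative, and the calls it changed are given beside the results. Levels of untreated cells between the genotypes had the slide as a random block (limma's duplicateCorrelation).

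The genes, the lists and the tests were chosen with earlier results of these data known. All 10 genes are described, and from each list the 3 with the largest change among those called, beside a few others for their role or their change in another comparison. Alternatives were another scaling, normexp background correction, other filters and probe rules, fits of only the arrays compared, the replicate block, leaving out arrays, the authors' values and another variance prior. Promoter windows are those of RefSeq.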

Additional observations from a re-analysis of the deposited data

Results flagged for a closer look

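Tlr3 was the only gene of the set whose response to a treatment differed between the genotypes by a test of the difference itself. This held with all arrays in the fit and no alternative applied. With both arrays of Ifnar1-/- LPS+zVAD+Nec-1 left out of the fit, Tlr6 for IFNβ, LPS+zVAD and IFNβ+zVAD+Nec-1, Tlr1 and Cd14 for LPS+zVAD and Tlr7 for IFNβ+zVAD+Nec-1 passed this test too. Tlr2 passed it for LPS and LPS+zVAD in limma fits of only the arrays compared (adjusted p = 0.0138 and 0.00801). With the authors' values, 2 genes of the set passed it for IFNβ. Tlr3 passed it for 6 treatments, each a difference of Ifnar1-/- minus WT responses, with an SE of 0.63 log2 from limma. It was -4.02 log2 for LPS (3.24 in WT and -0.78 in Ifnar1-/- cells), -4.57 for IFNβ (4.75 and 0.18), -5.19 for LPS+zVAD (3.55 and -1.64), -4.05 for IFNβ+zVAD (4.57 and 0.52), -3.77 for LPS+zVAD+Nec-1 (3.62 and -0.15) and -3.67 for IFNβ+zVAD+Nec-1 (4.35 and 0.68). The 6 values share the untreated arrays of both genotypes and are not independent. Of the Tlr3 arrays, the 12 WT arrays with LPS or IFNβ all lay above the other 20.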

How the results depend on the processing

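Tlr3 kept its calls with LPS and IFNβ in WT cells, and its 6 genotype differences, under all alternatives run. Of 310 differences of single genes, the replicate block changed 17 calls, all from not called to called, and no other call. A slide holds 1 genotype, so the block gives no value for untreated cells of the 2 genotypes; there the slide as a random block, chosen after seeing the data, changed 0 calls. Fits of only the arrays compared ended 16 calls and added 14. Such a fit gave 2 of the 10 genes called in the genotype difference for LPS and for IFNβ, 0 for LPS+zVAD+Nec-1 against LPS+zVAD and for LPS against IFNβ in WT cells, and 2 for LPS+zVAD against LPS in Ifnar1-/- cells. In the same order, it called 859, 3360, 0, 654 and 2058 of all genes. The fit of all arrays called 1064, 3014, 4564, 3251 and 1323. Of the 10 genes, 0 were called for LPS+zVAD against LPS in Ifnar1-/- cells with normexp, with no filter on dim probes, with a filter by both arrays of a group and with the authors' values. For IFNβ in WT cells, 1 gene was called with normexp and with no filter. The genotype difference for IFNβ had 2 calls when both arrays of Ifnar1-/- LPS+zVAD+Nec-1 were left out and with the authors' values. With 1 array left out, the count of called genes was 3 to 4 for LPS and 1 for IFNβ in WT cells, 2 for LPS in Ifnar1-/- cells, 1 to 3 for LPS+zVAD against LPS, 0 to 3 for LPS+zVAD+Nec-1 against LPS+zVAD and 0 to 2 for LPS against IFNβ in WT cells, and 0 for LPS+zVAD against LPS in Ifnar1-/- cells. Among all 1560 differences with 1 array left out, 225 that were not called changed sign. Among all 320 with the shift named below, 22 that were not called did. A single difference was called in a new direction, Tlr6 with LPS+zVAD+Nec-1 in Ifnar1-/- cells, at -1.09 log2 without replicate 1 and 1.58 log2 without replicate 2. When arrays were shifted to the same 75th percentile and not quantile-normalized, calls of all genes that were higher went from 39.6% to 50.2% for LPS and from 38.8% to 50.1% for IFNβ in WT cells, and from 54.6% to 40.9% in the genotype difference for IFNβ; the median of all genes moved from -0.08 to 0.08, from -0.17 to -0.02 and from 0.16 to 0.01 log2. The share for the genotype difference for LPS went from 45.7% to 58.6% with the replicate block. Apart from those named here and in the results, the cause of a changed call was not tested. With 2 arrays a group, confidence intervals span over 1 log2 for most genes, and a gene that was not called may have changed.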
